A study of Homo sapiens with 19 samples.

Results

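The metallothionein and metal-response genes MT1E, MT1F, MT1G, MT1M, MT1X, MT2A, MT3, MTF1 and SLC30A1 were examined across every library of the series that has a column in the processed tables. The 9 genes were chosen by name and found by Ensembl gene ID among the 19942 protein-coding genes of the TPM and eCLIP tables, and by transcript ID in the rRNA-depleted table, where they have 31 of 256980 transcripts. Their gene IDs are ENSG00000169715 (MT1E), ENSG00000198417 (MT1F), ENSG00000125144 (MT1G), ENSG00000205364 (MT1M), ENSG00000187193 (MT1X), ENSG00000125148 (MT2A), ENSG00000087250 (MT3), ENSG00000188786 (MTF1) and ENSG00000170385 (SLC30A1). All libraries came from SH-SY5Y, an established human neuroblastoma line, and the study asked which RNAs the stress granule (SG) proteins G3BP1 and G3BP2 bind and which RNAs enter SGs when cells are stressed with sodium arsenite (AS). The groups were rRNA-depleted RNA-seq of untreated cells and of cells given 500 μM AS for 1 h (1 library each), poly-A RNA-seq after control, G3BP1 or G3BP2 siRNA (siCtrl, siG3BP1, siG3BP2, 1 library each), RNA-seq of the cleared lysate (Total) and of SG cores pulled down with an anti-G3BP1 antibody (SG) from AS cells (1 library each), and eCLIP of G3BP1 and of G3BP2 in untreated and AS cells (2 libraries each). In eCLIP, RNA is crosslinked to the protein by UV light, precipitated with it and sequenced. The labels of the siRNA, Total, SG and all eCLIP libraries, those named as untreated controls included, carry 1 shared treatment text with 50 mM AS for 1 h, and the libraries are called here by their titles. RNA-seq conditions without a second library have no replicate error and were not tested.

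Metallothioneins are small cysteine-rich proteins that bind zinc, copper, cadmium and arsenic, and their genes are classic targets of heavy metals. MTF1 is the zinc-sensing transcription factor that binds metal response elements (MREs) in their promoters. SLC30A1, also known as ZnT1, exports zinc from the cell and is another MTF1 target. MT2A, MT1X, MT1E and MT1F are broadly expressed forms, MT1G and MT1M are more restricted, and MT3 is the brain form. The 7 metallothionein genes lie within 95.1 kb of chromosome 16 (GRCh38, chr16:56589074-56684196), all on the plus strand except MT1G. MT2A is at chr16:56608584-56609497 and MT1X at chr16:56682470-56684196. MTF1 (chr1:37809574-37859592) and SLC30A1 (chr1:211571568-211579161) are on the minus strand of chromosome 1. Their canonical mRNAs span both ends of the length scale, with 398 to 746 nt for the metallothioneins, 5893 nt for SLC30A1 and 7937 nt for MTF1, against a median of 2892 nt over the genes of the table.

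The promoters of MT2A, MT1X and SLC30A1, the 3 members with the highest AS to untreated ratios, are shown because MREs lie in the promoters of metal-induced genes. Each line gives the 250 bases before the RefSeq start (GRCh38.p14), read 5′ to 3′ on the strand of the gene. Capitals mark every match to TGCACNC or TGCGCNC on either strand. The windows are chr16:56608334-56608583 for MT2A, chr16:56682220-56682469 for MT1X and, on the minus strand, chr1:211579162-211579411 for SLC30A1.
MT2A: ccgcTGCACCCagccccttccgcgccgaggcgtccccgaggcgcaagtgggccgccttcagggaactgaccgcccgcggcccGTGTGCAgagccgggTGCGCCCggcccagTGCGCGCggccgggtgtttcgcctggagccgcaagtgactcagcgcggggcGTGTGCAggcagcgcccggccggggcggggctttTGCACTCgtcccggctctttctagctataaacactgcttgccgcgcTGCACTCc
MT1X: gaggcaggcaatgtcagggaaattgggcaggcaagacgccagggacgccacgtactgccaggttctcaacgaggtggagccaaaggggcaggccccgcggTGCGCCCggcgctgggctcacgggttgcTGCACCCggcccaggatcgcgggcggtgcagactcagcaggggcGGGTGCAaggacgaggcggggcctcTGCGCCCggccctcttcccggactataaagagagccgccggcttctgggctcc
SLC30A1: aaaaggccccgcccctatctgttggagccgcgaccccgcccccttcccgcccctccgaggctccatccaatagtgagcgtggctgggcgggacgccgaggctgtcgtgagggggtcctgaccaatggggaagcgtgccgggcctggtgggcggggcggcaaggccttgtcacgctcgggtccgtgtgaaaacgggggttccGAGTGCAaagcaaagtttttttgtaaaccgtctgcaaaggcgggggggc
The MT2A window held 7 matches, the MT1X window 4 and the SLC30A1 window 1, and that of MTF1, not shown, held 0. Of 35116 promoter windows of the same length, 24.8% held at least 1 match, 0.370% at least 4 and 0.0313% at least 7. The antioxidant response element TGACNNNGC, searched on both strands, occurred once each in the MT2A, MT1X and SLC30A1 windows and not in that of MTF1, and 10.9% of all windows held it. In MT2A, 1 match to it lay from base -104 to -96, between MRE matches at -139 to -133 and -88 to -82. Promoter windows were matched for 4 of the 9 members, which leaves out MT1E, MT1F, MT1G, MT1M and MT3. Over genes above 1 RPKM with a promoter window, the share past 2-fold higher in AS was 7.86% of 6743 genes with 0 matches, 6.54% of 3166 with 1 or 2, 4.92% of 183 with 3, and 3 of 50 genes with 4 or more. MT2A and MT1X were among these 3.

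In TPM, a unit scaled for transcript length, MT2A and MT1X were the most abundant members in each of the 5 libraries of the TPM table. MT2A had 98.3 TPM in siCtrl, 112 in siG3BP1, 112 in siG3BP2, 615 in Total and 167 in SG. MT1X had 67.3, 60.4, 63.4, 231 and 134 TPM in the same order. Total was the highest library for both, and the siRNA libraries were close to each other. The other metallothioneins were far below. MT1F had 6.85 TPM in siCtrl, 12.7 in siG3BP1, 8.81 in siG3BP2, 11.3 in Total and 1.73 in SG. MT1E had 3.45, 4.84, 2.04, 12.1 and 17.9 TPM, and MT1G 0.711, 0.517, 0.305, 8.11 and 0.626 TPM. MT1G was thus near the lower limit everywhere except in Total. MT1M did not exceed 0.336 TPM and MT3, the brain form, did not exceed 0.0931 TPM in any library. The 7 genes summed to 177 TPM in siCtrl, 191 in siG3BP1, 186 in siG3BP2, 877 in Total and 322 in SG, and MT2A with MT1X made up 90.5% to 96.4% of it.

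MTF1 and SLC30A1 had another profile. MTF1 had 3.14 TPM in siCtrl, 2.21 in siG3BP1, 2.18 in siG3BP2, 1.40 in Total and 58.8 in SG. SLC30A1 had 4.19, 3.28, 3.46, 7.30 and 90.5 TPM. SG was the highest library for both, by a wide margin. In siCtrl the order of levels was MT2A, MT1X, MT1F, SLC30A1, MT1E, MTF1, MT1G, MT1M and MT3, and with 1 library per condition no spread was available to separate neighbours in it.

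**Figure D1:**
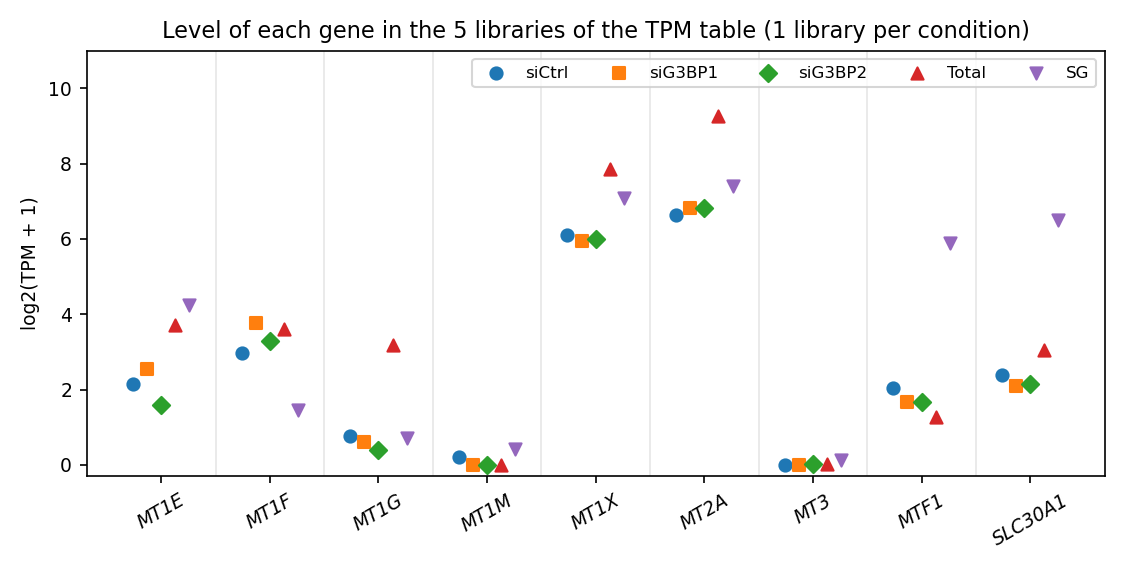
Level of each member as log2(TPM + 1) in the 5 libraries of the TPM table, 1 point per library. MT2A and MT1X are highest in Total (615 and 231 TPM), whereas MTF1 and SLC30A1 are highest in SG (58.8 and 90.5 TPM), and MT1M and MT3 lie near 0 throughout.

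The effect of AS on the transcriptome was measured in the rRNA-depleted libraries, whose values are in RPKM, reads scaled by transcript length and by library depth. A gene is given as the sum over its transcripts, which count shared reads more than once, and was called past 2-fold where the AS to untreated ratio exceeded 2 or was below 0.5 and the higher library exceeded 1 RPKM. MT1X had a summed level of 6.13 RPKM in untreated and 80.3 RPKM in AS cells, a ratio of 13.1. SLC30A1 had 2.97 and 19.0 RPKM, a ratio of 6.37. MT2A had 13.1 and 50.5 RPKM, a ratio of 3.87. MTF1 had 4.40 and 9.02 RPKM, a ratio of 2.05. In bulk RNA, fewer cells with a transcript and less of it per cell cannot be told apart. These 4 of the 5 members above 1 RPKM were past 2-fold higher and 0 lower, against 7.66% higher and 1.41% lower among 12683 protein-coding genes. The fifth, MT1F, had 0.859 and 1.71 RPKM, a ratio of 1.99. MT1F passed the 1 RPKM minimum through AS alone and only as a sum, its canonical mRNA being at 0.354 and 0.834 RPKM. The median ratio of the 5 was 3.87 and that of all genes tested 1.22. MTF1 and MT1F are therefore nearer to the bulk of genes than their ratios show. With AS rescaled so that the median ratio of genes above 1 RPKM in both libraries was 1, MT1X was at 10.8, SLC30A1 at 5.25, MT2A at 3.18, MTF1 at 1.69 and MT1F at 1.64, so that 3 members remained past 2-fold. Over all genes the same rescaling changed the split from 971 higher and 179 lower to 528 and 263.

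The values of this table step in whole reads, which gave 13291959 reads in the untreated and 11281587 in the AS library and so the count behind each level. The canonical MT1X mRNA had 14 reads in untreated and 112 in AS cells, a ratio of RPKM of 9.43 (95% exact binomial interval 5.39 to 17.8, counting error only). That of MT2A had 21 and 65 reads, a ratio of 3.65 (2.20 to 6.28). That of SLC30A1 had 233 and 1260 reads, a ratio of 6.37 (5.54 to 7.36), and that of MTF1 had 234 and 404 reads, a ratio of 2.03 (1.73 to 2.40). The intervals of MT1X and SLC30A1 overlap, and that of MTF1 lies below that of SLC30A1. Of the 31 transcripts of the members, 12 exceeded 1 RPKM in a library and all 12 were past 2-fold higher. Over 100705 transcripts the shares were 6.84% higher and 2.01% lower, but the count of 12 is no support beside them, because transcripts of 1 gene share reads and 2 MT1X transcripts (0.420 and 0.915 RPKM in untreated cells) exceeded 1 RPKM through AS alone. The canonical mRNAs of MT1M and MT3 had 0 reads in both libraries, which allows up to 3 reads, or 0.668 RPKM for MT1M and 0.655 RPKM for MT3 in AS cells. MT1E had 0 and 2 reads on its canonical mRNA, so no ratio is given, and MT1F had 2 and 4.

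**Figure D2:**
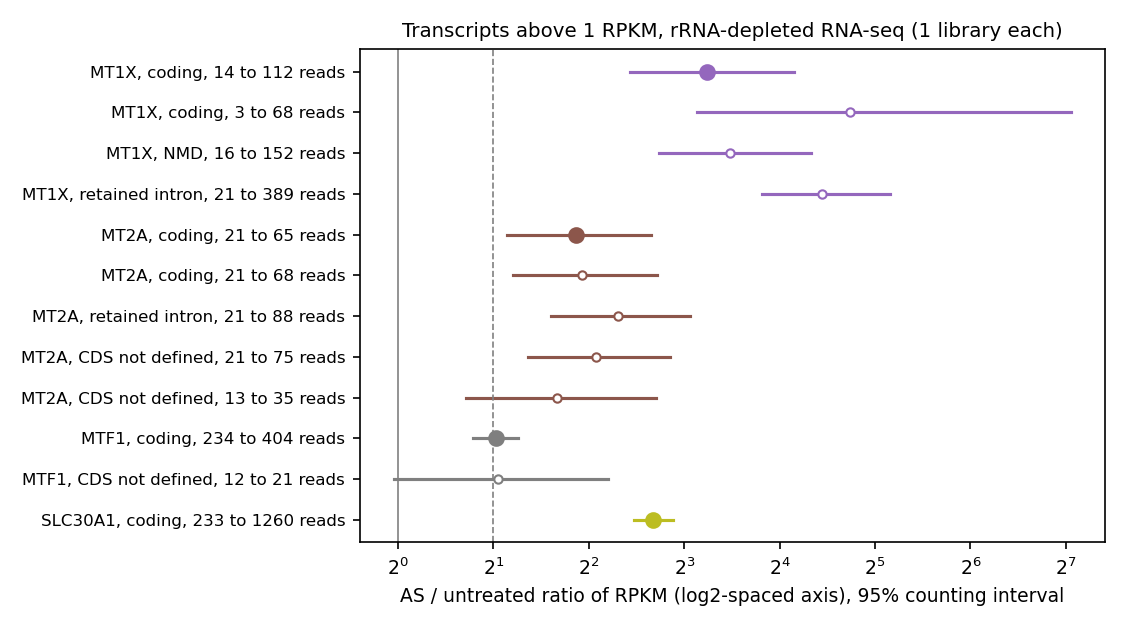
AS to untreated ratio of RPKM on a log2-spaced axis for the 12 member transcripts above 1 RPKM, with 95% exact counting intervals, large filled points for canonical mRNAs and small open points for other transcripts. All 12 points lie to the right of the dashed 2-fold line, those of MT1X farthest and those of MTF1 closest to it, and the intervals of both MTF1 transcripts and of 1 MT2A transcript cross it.

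In AS cells, most reads over the MT1X gene were not counted to its canonical mRNA. Its retained-intron transcript covers the whole gene, 1727 nt, of which 1323 nt are introns of the canonical mRNA. It had 21 reads in untreated and 389 in AS cells, a ratio of 21.8 (14.1 to 35.7). Less the canonical reads, at least 7 of its 21 reads (33.3%) in untreated cells were not counted to the canonical mRNA. In AS cells these were at least 277 of 389 (71.2%). Exons of other MT1X transcripts can hold some of them. MT2A had at least 0 of 21 such reads (0%) in untreated and at least 23 of 88 (26.1%) in AS cells. These are lower bounds, because a retained-intron transcript need not hold every read of the canonical mRNA. MT1G in AS cells, for example, had 2 reads on its canonical mRNA and 1 on its retained-intron transcript. No interval is therefore given, and the libraries cannot be compared by these shares. As a description, the log2 ratio of the retained-intron ratio to the canonical ratio was 1.21 for MT1X and 0.44 for MT2A. Its median over 5086 genes with at least 10 reads on both transcripts in both libraries was -0.04, with quartiles of -0.22 and 0.07. MT1X was at the 99.8th percentile and MT2A at the 95.6th.

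Total, from AS cells, and siCtrl are in 1 table but differ in siRNA, lysis and clearing as well, and these cannot be told apart from AS. The study's methods name poly-A selection for the knockdown libraries, and give no selection for Total and SG. The shared treatment text does not settle whether siCtrl cells were given AS. Between them, MT1G was 11.4-fold, MT2A 6.25-fold, MT1E 3.50-fold and MT1X 3.43-fold higher in Total, and MTF1 was at 0.445 of its siCtrl level. MT1G passed the 1 TPM minimum only through Total. MT1F, at 1.65, and SLC30A1, at 1.74, were within 2-fold. The count was 4 higher and 1 lower of 7 members tested, against 2.37% higher and 27.2% lower among 12173 genes, and the median ratio was 3.43 beside 0.718. Long mRNAs were lower in Total: the median ratio was 0.497 over 3034 genes of at least 5000 nt (quartiles 0.316 and 0.761) and 1.01 over 288 genes under 600 nt (quartiles 0.684 and 1.31). MT2A, MT1X, MT1F and MT1G were above the upper quartile of the short genes, SLC30A1 was above that of the long genes, and MTF1 was between the quartiles of the long genes. The part of mRNA length in these ratios was not tested. With Total rescaled to a median ratio of 1, 6 members were higher, SLC30A1 at 2.32 and MT1F at 2.20 among them, and none was lower, MTF1 being at 0.593. Over all genes the split went from 288 higher and 3311 lower to 678 and 1951.

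MT1X and MT2A were past 2-fold higher in both comparisons, 2 of the 5 members with both ratios, beside 0.457% of 11383 genes. SLC30A1 was past 2-fold in the rRNA-depleted libraries, and its ratio in Total was 1.74. MTF1 had ratios on opposite sides of 1, 2.05 in the rRNA-depleted libraries and 0.445 in Total.

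**Figure D3:**
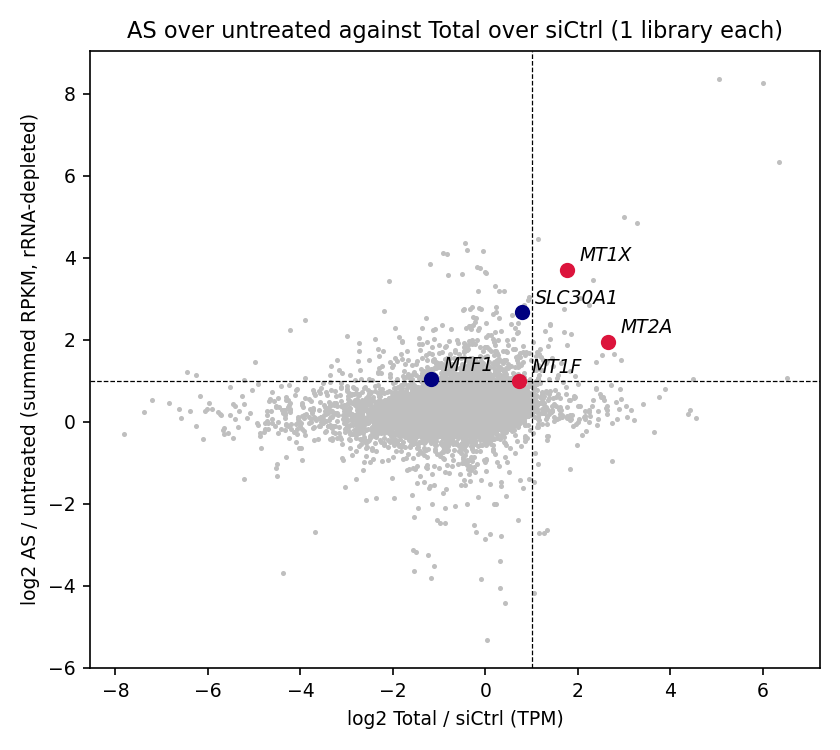
Log2 ratio of AS to untreated (summed RPKM, y axis) against log2 ratio of Total to siCtrl (TPM, x axis) for genes with both ratios, with metallothioneins in red and MTF1 and SLC30A1 in blue. MT1X and MT2A lie beyond the dashed 2-fold lines on both axes, SLC30A1 beyond that on the y axis alone, and MTF1 past 2-fold higher on the y axis and past 2-fold lower on the x axis (0.445 as a ratio).

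To see which members had a higher or lower relative level in SG cores than in the lysate, SG was set against Total. Within SG, MT2A (167 TPM) and MT1X (134 TPM) were above SLC30A1 (90.5 TPM) and MTF1 (58.8 TPM), so a low ratio does not mean absence from the cores. A gene was SG-enriched where the ratio of TPM + 1 exceeded 2 and SG exceeded 1 TPM, and SG-depleted where it was below 0.5 and Total exceeded 1 TPM. MTF1, at 24.9, and SLC30A1, at 11.02, were enriched. MT1G, at 0.178, MT1F, at 0.222, and MT2A, at 0.274, were depleted, and MT1X, at 0.583, and MT1E, at 1.45, were neither. Among 13560 genes, 62.9% were enriched and 9.45% depleted, beside 2 enriched and 3 depleted of the 7 members tested. MT1G, with 0.626 TPM in SG, passed the 1 TPM minimum through Total alone, where it was high. The median ratio was 0.583 for the members and 2.86 for all genes tested. The summed metallothionein level in SG was 0.367 of that in Total. With SG rescaled to a median ratio of 1, MTF1 was at 9.25 and SLC30A1 at 4.05, MT1X was depleted at 0.213, and MT1E was at 0.570, on the other side of 1. The split of all genes then changed from 8528 enriched and 1282 depleted to 4505 and 3271.

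mRNA length moved with the SG ratio too. The median was 8.91 over 3593 genes of at least 5000 nt (quartiles 4.47 and 16.9) and 1.05 over 339 genes under 600 nt (quartiles 0.159 and 4.88). SLC30A1 lay between the quartiles of the long genes, and MTF1 was above their upper quartile. MT2A, MT1X, MT1F and MT1G lay between the quartiles of the short genes, all 4 below the median. MT1E, at 746 nt, had the highest ratio among the metallothioneins above 1 TPM. Its canonical transcript has 2 exons and a coding sequence of 381 nt, longer than those of the other metallothioneins. Over 3122 genes from 600 to 2000 nt the median was 0.812 (quartiles 0.428 and 1.70), lower than under 600 nt. MT1E lay between these quartiles. The part of length in these ratios was not tested.

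**Figure D4:**
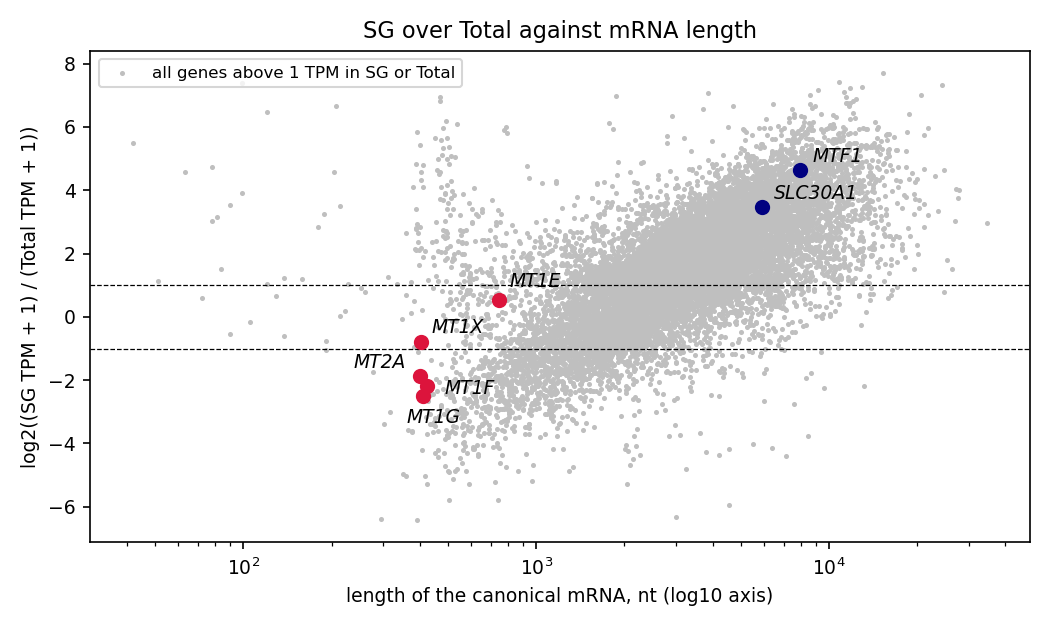
Log2 ratio of SG to Total (TPM + 1) against the length of the canonical mRNA in nt on a log10 axis, 1 grey point per gene above 1 TPM in SG or Total, with metallothioneins in red and MTF1 and SLC30A1 in blue. The short metallothionein mRNAs lie at the lower left, between 0.178 (MT1G) and 1.45 (MT1E) as ratios, and MTF1 (24.9) and SLC30A1 (11.02) at the upper right within the cloud of long genes.

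With either G3BP depleted, the members above 1 TPM were within 2-fold of siCtrl. G3BP1 itself was at 32.0% of siCtrl in siG3BP1 and G3BP2 at 29.9% in siG3BP2. None of 6 members above 1 TPM was past 2-fold in siG3BP1, against 2.53% of 12280 genes higher and 3.69% lower, and none of 6 in siG3BP2, against 2.43% of 12229 genes higher and 5.62% lower. In siG3BP1 the ratios ran from 0.703 for MTF1 to 1.86 for MT1F, with MT2A at 1.14, MT1X at 0.898 and SLC30A1 at 0.783. In siG3BP2 they ran from 0.590 for MT1E to 1.29 for MT1F, with MT2A at 1.13, MT1X at 0.942, MTF1 at 0.694 and SLC30A1 at 0.827. MT1E was above 1 in siG3BP1, at 1.40, and below 1 in siG3BP2. Both knockdowns were compared with the same siCtrl library, and the median ratio was 0.940 and 0.916 over all genes tested.

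The eCLIP table gives, for each gene and library, log10 of a whole number plus 1, and the number is used here as the eCLIP value without scaling between libraries. Its sum over genes ran from 4268911 to 26179736, and the second library of each pair was the smaller in all 4 groups. SLC30A1 had log10 eCLIP values of 1.67 and 1.45 for G3BP1 in untreated cells and 1.04 and 1.00 in AS cells. For G3BP2 it had 1.51 and 1.59 in untreated and 1.30 and 1.08 in AS cells. All 4 AS libraries were below all 4 untreated libraries as deposited, as for 0.535% of 19259 genes, but the groups overlapped once the libraries were scaled to the same total (0.91 to 1.54 in AS and 1.30 to 1.81 in untreated libraries). MT1E had 1.28 and 0.85 for G3BP1 in untreated and 0.70 and 0 in AS cells, and 1.32 and 1.28 for G3BP2 in untreated and 0 and 0 in AS cells. The AS and untreated values of MT1E did not overlap as deposited, nor when scaled, where 2.91% of 19259 genes were lower without overlap.

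MTF1 had the highest eCLIP values of the members, 2.27, 1.78, 2.30 and 1.95 in the untreated and 2.25, 1.58, 2.31 and 1.74 in the AS libraries of G3BP1 and then G3BP2. As deposited, its groups overlapped, as did those of the metallothioneins other than MT1E. MT2A, at 0, 1.20, 0 and 1.32 in untreated and 1.49, 0, 1.04 and 1.04 in AS libraries, was listed at 0 in 3 of 8 libraries. MT1X was listed at 0 in 4 of 8 and never exceeded 0.85. MT3, which was near 0 TPM, had values from 0.95 to 1.74 and was at 0 in none. MT1F ran from 0.70 to 1.51, MT1G from 0 to 1.40 and MT1M from 0 to 1.28. Per kilobase of gene, introns included, the unscaled mean number, in which the larger first libraries weigh most, over the 8 libraries was 13.5 for MT3, 11.6 for MT2A, 7.49 for MT1G, 5.04 for MT1E, 4.42 for MT1F, 3.59 for MT1M, 3.14 for SLC30A1, 2.50 for MTF1 and 1.74 for MT1X. The median over all genes was 6.64, so MTF1, whose gene is 50.0 kb long, and MT1X, the mRNA second in level, were both well below it. The order of the members by eCLIP value was not their order by TPM.

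**Figure D5:**
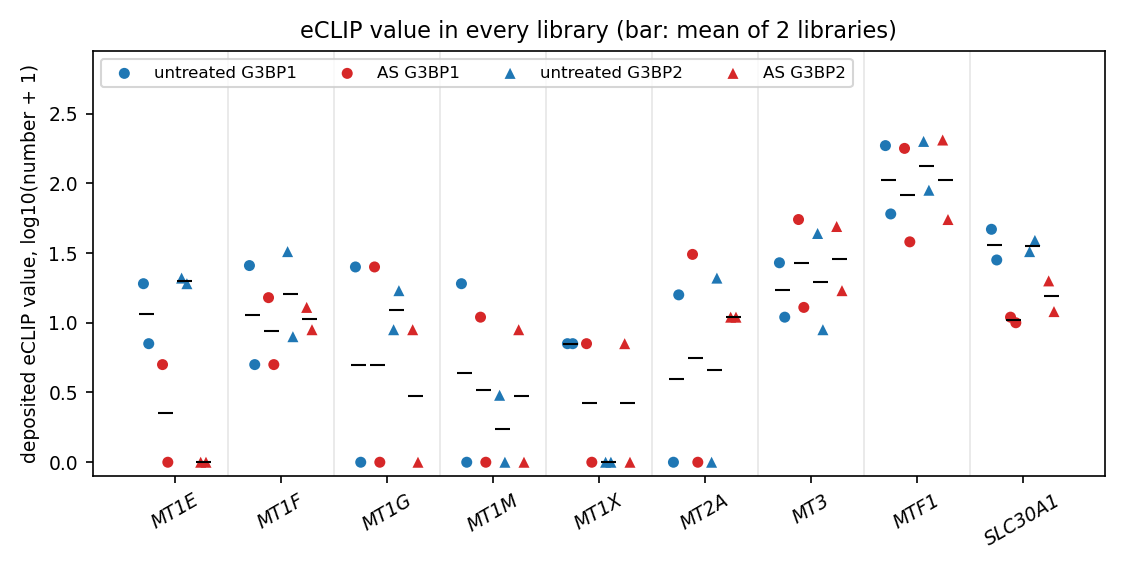
Deposited eCLIP value, log10(number + 1), of each member in the 8 libraries, with untreated in blue, AS in red, G3BP1 as circles, G3BP2 as triangles and a bar for the mean of 2 libraries. As deposited, SLC30A1 and MT1E are lower in all AS libraries than in all untreated ones (0.535% of all genes were). With libraries scaled to the same total, not plotted, SLC30A1 overlaps, MT1E stays lower (2.91% of all genes) and MT3 is higher without overlap (2.62%).

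By limma with Benjamini-Hochberg adjustment over all genes, no member passed 0.05 in either protein. For G3BP1 the AS change of SLC30A1 was -0.54 ± 0.62 (SE, log10 scale) and that of MT1E -0.72 ± 0.57, both with an adjusted p of 1, and 0% of 18888 genes were called (16 higher and 30 lower at an unadjusted p under 0.05). For G3BP2 the changes were -0.36 ± 0.43 for SLC30A1 and -1.30 ± 0.44 for MT1E, again with an adjusted p of 1, and 0.0105% of 19035 genes were called. MTF1 changed by -0.11 ± 0.63 and -0.10 ± 0.43, and MT2A by 0.15 ± 0.57 and 0.38 ± 0.43. At an unadjusted p under 0.05 the members counted 0 of 9 for G3BP1 and 1 of 8 for G3BP2, MT1E. No member was called for a difference in AS change between the proteins (0% of 19259 genes called, 22 higher and 26 lower unadjusted), the largest difference, G3BP2 minus G3BP1, being 0.85 ± 0.64 for MT1X at an adjusted p of 1. No member was called between G3BP2 and G3BP1 over both treatments (0% of 19259 genes called, 136 higher and 14 lower unadjusted), with differences from -0.43 ± 0.31 for MT1X to 0.18 ± 0.31 for MT2A, and adjusted p from 0.955 to 0.960 by limma. In both tests 0 of 9 members had an unadjusted p under 0.05. These tests used unscaled values, so their SEs include the size difference between duplicates. With libraries scaled to the same total, the SE of MTF1 was 0.12 for G3BP1 and 0.089 for G3BP2. For G3BP1, 253 genes were then higher and 230 lower at an unadjusted p under 0.05 by limma. No member passed 0.05 after adjustment when scaled either. The lack of calls without scaling is therefore no sign of unchanged values.

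A fit over all 8 libraries with the AS change averaged over both proteins, added after the values were seen, called 0.0571% of 19259 genes and no member. In it MT1E changed by -1.01 ± 0.31, with an adjusted p of 0.419, and SLC30A1 by -0.45 ± 0.31, with an adjusted p of 1. As single values, 4 AS against 4 untreated libraries gave a two-sided exact permutation p of 0.0286 for MT1E and for SLC30A1, the smallest that 70 regroupings allow, unadjusted and chosen after the values were seen. Non-overlap with AS higher held for 0.26% of 19259 genes as deposited. With every library scaled to the same total, MT1E kept its non-overlap (0 to 0.58 in AS and 1.12 to 1.45 in untreated libraries), against 2.91% of genes lower and 2.62% higher. The scaled values of SLC30A1 overlapped, with an exact permutation p of 0.143. Scaled, MT3 was higher in all AS libraries (1.48 to 1.66) than in all untreated ones (1.11 to 1.44).

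The other genes of the zinc transporter families SLC30 and SLC39 did not share the AS ratio of SLC30A1. Of 9 further SLC30 genes, 7 exceeded 1 RPKM and none was past 2-fold, with a median ratio of 1.38. Of 14 SLC39 genes, which bring zinc into the cytosol, 9 were tested and none was past 2-fold, with a median of 1.24. In SG, 5 of 6 SLC30 genes were enriched, SLC30A4 at 9.99 and SLC30A6 at 7.03 among them, and of 11 SLC39 genes 6 were enriched and 1 was depleted, where 62.9% of all genes were enriched and 9.45% depleted. Of the SLC39 genes SLC39A4, an importer known from the intestine, had 8.19 TPM in siCtrl, 39.8 in siG3BP1 and 28.5 in siG3BP2. In Total it had 16.9 TPM, 2.06 times its level in siCtrl, the library both knockdowns share, and in SG 7.03 TPM. SLC39A4 was the only SLC39 gene past 2-fold higher in a knockdown, with SLC39A9 lower in siG3BP2, at 0.483. Of 5 metallothionein genes outside the 9, MT1A alone exceeded 1 TPM, with 1.17 TPM in siCtrl, 0 in siG3BP1, 0.522 in siG3BP2, 1.17 in Total and 0 in SG.

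By distance of log2(TPM + 1) relative to siCtrl over siG3BP1, siG3BP2, Total and SG, the profile nearest to that of MT2A among 10757 genes was DLK1, at 0.961, followed by MT1X, at 0.995, and DDIT3, at 1.16. MT1E was 41st. Nearest to MTF1 were RAD54L2, at 0.0765, VPS13D, at 0.141, and CPD, at 0.156. Nearest to SLC30A1 were DENND5B, at 0.211, FOXO1, at 0.419, and ANK2, at 0.610. Some of these genes were near the floor outside SG, so their distances rest mainly on SG. FOXO1 had 0.143 TPM in siCtrl and 0.629 in Total, VPS13D 0.918 and 0.174, and DENND5B 0.926 in siCtrl. RAD54L2, CPD and ANK2 exceeded 1 TPM in siCtrl and Total. MTF1 and SLC30A1 were 1.51 apart.

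The identity of the cells and the reach of the measurement touch all these values. Of 9 noradrenergic neuroblastoma markers 8 exceeded 1 TPM in each library of the TPM table, TH being the exception at 0 to 0.389 TPM. Of 10 markers of glia, fibroblasts and blood 2 or 3 did, with a sum of 11.6 TPM in Total, 17.8 to 21.8 TPM in the siRNA libraries and 76.7 TPM in SG, COL1A1 being the highest. In the rRNA-depleted libraries MBP (0.0463 and 3.60 RPKM) and CD68 (2.45 and 8.33 RPKM) were past 2-fold higher in AS and COL1A2 (2.85 and 1.27 RPKM) past 2-fold lower, while HBB and ALB were at 0 in both. The part of these markers in the member values was not tested. Of 8 AS response genes that are not members, 4 of the 6 above 1 RPKM were past 2-fold higher in AS. These were FOS (0.768 and 236 RPKM), ATF3 (4.14 and 45.7 RPKM), DNAJB1 and HMOX1, whereas GCLM had a ratio of 1.17 and SRXN1 of 1.43. The coding sequences of MT1F, MT1G, MT1M, MT1X, MT2A and MT3 were 73.0% to 93.5% identical to each other, so reads can be shared. That of MT1E, taken from a canonical transcript with a longer coding sequence of 381 nt, was 40.4% to 41.7% identical to those of these genes. Gaps counted as differences, and the other coding sequences have 183 to 204 nt, so this value is limited by length. It does not measure how far MT1E diverged, and the other MT1E coding transcripts were not compared. Of windows of 75 nt in the canonical mRNAs, 8.18% of those of MT1X, 6.55% of MT1G and 1.64% of MT1E recurred in another family gene, and 0 in the other 4. In the rRNA-depleted AS library HSPA1A and HSPA1B, a nearly identical pair, had 0.0834 and 0.0352 RPKM beside 79.3 and 30.5 TPM in Total. MT1E had 0.756 RPKM beside 12.1 TPM, but this was not particular to it. MT2A had 50.5 RPKM beside 615 TPM, MT1X 80.3 beside 231, MT1F 1.71 beside 11.3 and MT1G 0.792 beside 8.11. SLC30A1 (19.0 beside 7.30) and MTF1 (9.02 beside 1.40) went the other way. Unit and library type differ between these values, and the part of shared reads was not tested.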

How the data were processed

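The authors aligned RNA-seq reads to GRCh38.p13 with HISAT2 2.1.0 and estimated TPM with StringTie; they deposited TPM for protein-coding genes, whose depth is unknown. The deposited rRNA-depleted values are headed TPM but sum to 1039719 and 1216810 and step as RPKM of whole reads, and were used as RPKM. eCLIP reads were aligned with STAR and peaks called with CLIPper. Per the file headers the eCLIP values are peaks, and what the number counts is not given in the sources used here; the deposited values are log10 of a whole number plus 1, and the share of even numbers among 1 to 15 is 80.3%. SMInput libraries were not analysed here. Genes were matched to GENCODE 44 and transcripts by ID (91.1%). Ratios used thresholds of 2 and 0.5 and a minimum of 1 TPM or RPKM, with a pseudocount of 1 for SG only. eCLIP was tested with limma 3.58.1 (R 4.3.3, trend, genes above 0 in at least 2 libraries). Nothing says that the duplicates came from separate cultures, so p-values measure the spread between these libraries. The other scripts ran in Python 3.11.15, and the folds and limma were tested on simulated data. The simulated noise for limma was below the real spread, so it does not show what change the eCLIP tests could call. The members, gene lists and tests were chosen with earlier results of these data known. All members are named, and of other lists the genes past a fold rule or above 10 TPM, HSPA1A and HSPA1B, MT1A and the AS check genes being chosen after their values were seen. The rRNA-depleted value of 1 marker gene is not reported here.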

Additional observations from a re-analysis of the deposited data

How the results depend on the processing

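Each RNA-seq condition had 1 library, the canonical MT1X and MT2A mRNAs rest on 14 and 21 untreated reads, and the eCLIP duplicates differed in size. No call of a member reversed. With a fold threshold of 1.5, 1 member was past it in siG3BP1 (MT1F, 1.86) and 1 in siG3BP2 (MT1E, 0.590), against 0 of 6, and the other 72 alternative counts of members were within 1.5 times of those reported. MTF1 lost its AS call with a pseudocount of 1 (1.85) or rescaled (1.69), and its call in Total with a pseudocount of 1 (0.579) or rescaled (0.593), and was not tested there at a minimum of 5 TPM. MT2A lost its SG depletion under thresholds of 4 and 0.25. Uncalled, MT1X in siG3BP2 turned from 0.942 to 1.02 when rescaled. In AS, 4 members were past 2-fold by protein-coding transcripts and 4 by canonical transcripts, the latter chosen after seeing the data.

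Counts over all genes moved more. A pseudocount of 1 gave 138 higher and 243 lower in siG3BP1, 150 and 353 in siG3BP2, 156 and 2387 in Total and 462 and 71 in AS. A fold threshold of 1.5 gave 684 and 1088, 604 and 1648, 641 and 5427, and 2683 and 322 in the same order, and a minimum of 5 gave 97 and 177, 115 and 292, 133 and 2158, and 403 and 45. The reported counts were 311 and 453, 297 and 687, 288 and 3311, and 971 and 179. Canonical transcripts gave 435 and 40 in AS, protein-coding ones 785 and 128, and thresholds of 4 and 0.25 gave 5332 enriched and 538 depleted genes in SG.

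In eCLIP the count of members past 0.05 by limma was 0 under each alternative run, including the replicate block (0), scaling, no filter and each library left out (0 to 0), and the lowest adjusted p of a member was 0.0758, for MT1E in G3BP2 without the filter. At an unadjusted p under 0.05, 2 of 9 members counted for G3BP1 with the replicate block, MT1E and SLC30A1, both with an adjusted p of 0.786 by limma, against 0 of 9 without it. The labels do not say what a replicate number stands for, and replicate differences in untreated and AS libraries correlated over genes at 0.147 for G3BP1 and 0.0603 for G3BP2. Of all genes, 2 higher were called for G3BP2, against 0 with the block, scaled or without the filter, and 12 lower without AS G3BP2 replicate 1. The difference in AS change called 6 genes without the filter, and G3BP2 against G3BP1 called 1. The fit over both proteins, chosen after seeing the data, called 11 genes, 29 with the replicate block, 17 scaled, 63 with both, 1 without the filter, 0 without AS G3BP2 replicate 1 and 29 without AS G3BP1 replicate 2. The causes were not tested.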

Other observations

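Genes for copper and arsenic handling gave values of their own. Of 8 genes for copper transport and delivery, only SLC31A2, a copper transporter, was past 2-fold in AS, with 1.32 RPKM in untreated and 3.77 RPKM in AS cells. ATP7B, a copper-exporting ATPase, had 3.64 TPM in siCtrl, 1.74 in siG3BP1 and 1.41 in siG3BP2. In SG, 3 of the 8 copper genes were enriched, ATP7A at 27.6, ATP7B at 9.55 and SLC31A1 at 2.82, and 3 were depleted, ATOX1 at 0.144, COX17 at 0.159 and COMMD1 at 0.281, where 62.9% of all genes were enriched and 9.45% depleted.

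Of 8 genes for arsenic uptake, methylation and export, AQP7, an aquaglyceroporin, was past 2-fold in AS (0.808 and 2.67 RPKM), but passed the 1 RPKM minimum through AS alone and was at 0 TPM in siCtrl, siG3BP1, siG3BP2 and Total. AS3MT, the arsenic methyltransferase, had 3.22 and 3.91 RPKM. GSTP1 and GSTO1, glutathione transferases, were SG-depleted at 0.130 and 0.129, and ABCC1, an exporter of glutathione conjugates, was SG-enriched at 5.21.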
